A study of Mus musculus with 3 samples.

Results

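The genes Ibsp, Spp1, Dmp1, Dspp and Mepe encode the small integrin-binding ligand, N-linked glycoproteins of mineralized matrix, and their transcripts were followed in sorted cells of the mouse tooth root. The 5 genes were picked by symbol in the gene lists of 3 single-cell RNA-seq libraries and joined by gene identifier, and all 5 were present among the 21446 genes that the libraries share. Each library held cells pooled from the M1 and M2 mandibular molars of Pthrp-mCherry knock-in mice and sorted by FACS for mCherry, a reporter placed at the gene of parathyroid hormone-related protein that marks cementoblasts and their precursors on the root surface. The ages were postnatal day 15 (P15), P25 and 8 weeks, with 1 library per age, so no age had a replicate. All libraries carried the same knock-in allele, the study used mice of both sexes, and the number of pooled animals is not given in the sources used here. The study chose these ages to follow cementoblasts from acellular to cellular cementum formation.

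The P15, P25 and 8-week libraries held 12926, 8971 and 5192 cells, with a median of 14218, 15000 and 8695 UMIs (unique molecular identifiers, 1 per captured transcript) of shared genes per cell. The 8-week library was the shallowest. Between 13 and 26 cell barcodes recurred in each pair of libraries. A UMI of Pthlh, the gene behind the reporter, was found in 44.2%, 63.0% and 53.8% of cells.

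Cementum is the thin mineralized layer that anchors the periodontal ligament to the tooth root. It is laid down by cementoblasts, which secrete a collagen matrix rich in acidic phosphoproteins. These 5 genes lie next to each other and encode secreted, heavily phosphorylated proteins that carry an integrin-binding motif and bind calcium or hydroxyapatite. Bone sialoprotein (Ibsp) promotes the start of mineral formation and is abundant in cementum. Osteopontin (Spp1) binds crystals and restrains their growth, and is also made by macrophages and osteoclasts. Dentin matrix protein (Dmp1) is typical of cells embedded in mineral, such as osteocytes. Dentin sialophosphoprotein (Dspp) is the major non-collagenous product of odontoblasts, and matrix extracellular phosphoglycoprotein (Mepe) is made by odontoblasts and osteocytes.

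Cells were grouped by UMIs of 6 genes outside the family, so no member's own UMIs took part in the grouping. The gates were, however, chosen with earlier results of these data known. The study lists Enpp1 with Dmp1 and Ibsp as markers of a cementoblast cluster, and Ifitm5 and Phex with Dmp1 as markers of another. Those clusters were drawn in part from these libraries, so member levels by class are not independent of these data. Enpp1, whose enzyme makes the mineralization inhibitor pyrophosphate, Hand2, a transcription factor of jaw mesenchyme, Pappa2, a protease of insulin-like growth factor binding proteins, and Ptprc, the leukocyte antigen CD45, each marked a class at 2 UMIs or more. The Ifitm5/Phex class needed 2 UMIs of Ifitm5, a membrane protein of bone-forming cells, and 1 of Phex, an endopeptidase that cleaves peptides of this protein family, whatever the cell's UMIs of Enpp1, Hand2 or Pappa2. Cells with Enpp1 and Hand2 formed a class of their own. The Ifitm5/Phex class held 45, 66 and 32 cells at P15, P25 and 8 weeks, the Enpp1 class 1030, 598 and 284, the Enpp1/Hand2 class 26, 296 and 186, the Hand2 class 240, 875 and 629, the Pappa2 class 724, 38 and 18, and the Ptprc class 809, 139 and 19. Other combinations of gate genes were found in 97, 112 and 15 cells, which were set aside. Between 76.3% and 77.2% of cells passed no gate and were called ungated. Gates also chose on depth, since the median cell of the Ifitm5/Phex class held 27684, 36488 and 19320 UMIs and that of the Enpp1 class 15978, 14048 and 9817.

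Marker genes outside the gates were read as sums over lists, whose single genes did not all peak in their own class. Smpd3 at P15 was at 744 CPM (UMIs of a gene per 1000000 UMIs summed over the cells of a class) in the Ifitm5/Phex class and 1081 in the Enpp1 class, and the Pappa2 marker Col13a1 at P25 was at 12.1 CPM in the Pappa2 class and 22.6 in the Enpp1 class. The summed level of Col11a2, Bglap, Smpd3, Col1a1 and Sparc was 109871, 197440 and 149147 CPM in the Ifitm5/Phex class and 26325, 51607 and 27532 in the Enpp1 class. The 4 leukocyte genes Tyrobp, Fcer1g, Laptm5 and Lcp1 summed to 5210 and 5222 CPM in the Ptprc class at P15 and P25, and to between 1.77 and 20.9 in the Ifitm5/Phex class. Of 3 osteocyte genes, Pdpn was higher in the Ifitm5/Phex class than in the Enpp1 class in each library, at 44.1, 120 and 93.6 against 30.5, 54.6 and 59.0 CPM, and Sost was at 11.6, 0 and 0 CPM in the Ifitm5/Phex class and at no more than 0.0864 in the Enpp1 class. Fgf23 was at 0 in the Ifitm5/Phex class in all libraries. The 3 odontoblast genes Dspp, Nes and Dkk1 were present there at a sum of 509, 439 and 177 CPM, against 36.7, 16.8 and 16.3 in the Enpp1 class, a difference that bears on Dspp and is taken up with it.

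The family occupies 270 kb of chromosome 5, with all 5 genes on the plus strand of GRCm38 (GENCODE M21). Dspp lies at chr5:104170712-104180127, Dmp1 at chr5:104202613-104214102, Ibsp at chr5:104299171-104311469, Mepe at chr5:104325329-104338611 and Spp1 at chr5:104435118-104441050. Promoters of 300 bases from RefSeq (GRCm38.p6) were matched for 4 members in 6 entries, and Dspp was not matched. One arrangement recurred in 1 entry of each of the 4 genes and is shown because these entries share it. The other entries of Dmp1 and Spp1 lacked it. The arrangement is ATTGG, the core of a CCAAT box read on the other strand, 21 bases, and then TTTAAA or TTTATA. The lines give 30 bases of the plus strand from ATTGG to the first 4 bases of the AT-rich motif, and capitals mark these 2 elements.
Dmp1: ATTGGctctgaggagctgcagcagagTTTA
Ibsp: ATTGGctgttgagaggcggagaagggTTTA
Mepe: ATTGGacatcgggggctctcacaaacTTTA
Spp1: ATTGGtggagactgtctggaccagcaTTTA
These stretches lie at chr5:104202560-104202589, chr5:104299233-104299262, chr5:104325308-104325337 and chr5:104435065-104435094, with ATTGG beginning 57, 54, 21 and 46 bases before the RefSeq start. The Mepe stretch runs 9 bases past that start, and the Ibsp stretch falls in the first exon (5′ UTR) of the GENCODE model, which begins 116 bases upstream of the RefSeq start. The 21 bases between the motifs were alike at only 5 to 12 positions in any pair of genes. The arrangement was chosen after the sequences were seen. Searched on both strands, it occurred in 21 of 32851 promoters of the same length (0.0639%), and with any spacer of 10 to 40 bases in 396 (1.21%), while ATTGG alone occurred in 37.4% and TTTAAA or TTTATA in 24.1%. The Runx-type motif ACCACA, in 16.8% of all promoters, was found in entries of Dmp1, Mepe and Spp1. These matches are descriptions of sequence and were not tied to any level below.

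Ibsp was the most widespread member. In the Enpp1 class it reached 15839 CPM at P15, 19583 at P25 and 32491 at 8 weeks, a mean of 22638 ± 8736 (SD, n = 3 libraries). The Enpp1/Hand2 class was at 12938, 28703 and 42604 CPM, which overlapped the Enpp1 class. The Hand2 class stood at 766, 5599 and 8868 CPM, and its P15 value was far below the others. In the Ifitm5/Phex class Ibsp was at 3779, 3023 and 4302 CPM, below every Enpp1 value and inside the range of the Hand2 class. Ungated cells followed at 1517, 1976 and 2866 CPM, and the Pappa2 class at 932 and 1743 CPM at P15 and P25, where these classes overlapped too.

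Free RNA sets a floor under these values, because transcripts of broken cells enter every droplet. B-lineage cells with 2 or more UMIs of Cd79a, which should lack the whole family, held 74.5 CPM of Ibsp at P15 and 34.8 at P25, and none were found at 8 weeks. Epcam-positive epithelial cells, taken from the ungated cells, held 118, 161 and 56.9 CPM. Every class named above stood above this level for Ibsp in each library, whereas the Ptprc class as a whole was nearer to it, at 141, 213 and 103 CPM. Its counting intervals still lay above those of the Cd79a and Epcam cells at P15 and P25, and met that of the Epcam cells at 8 weeks.

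**Figure D1:**
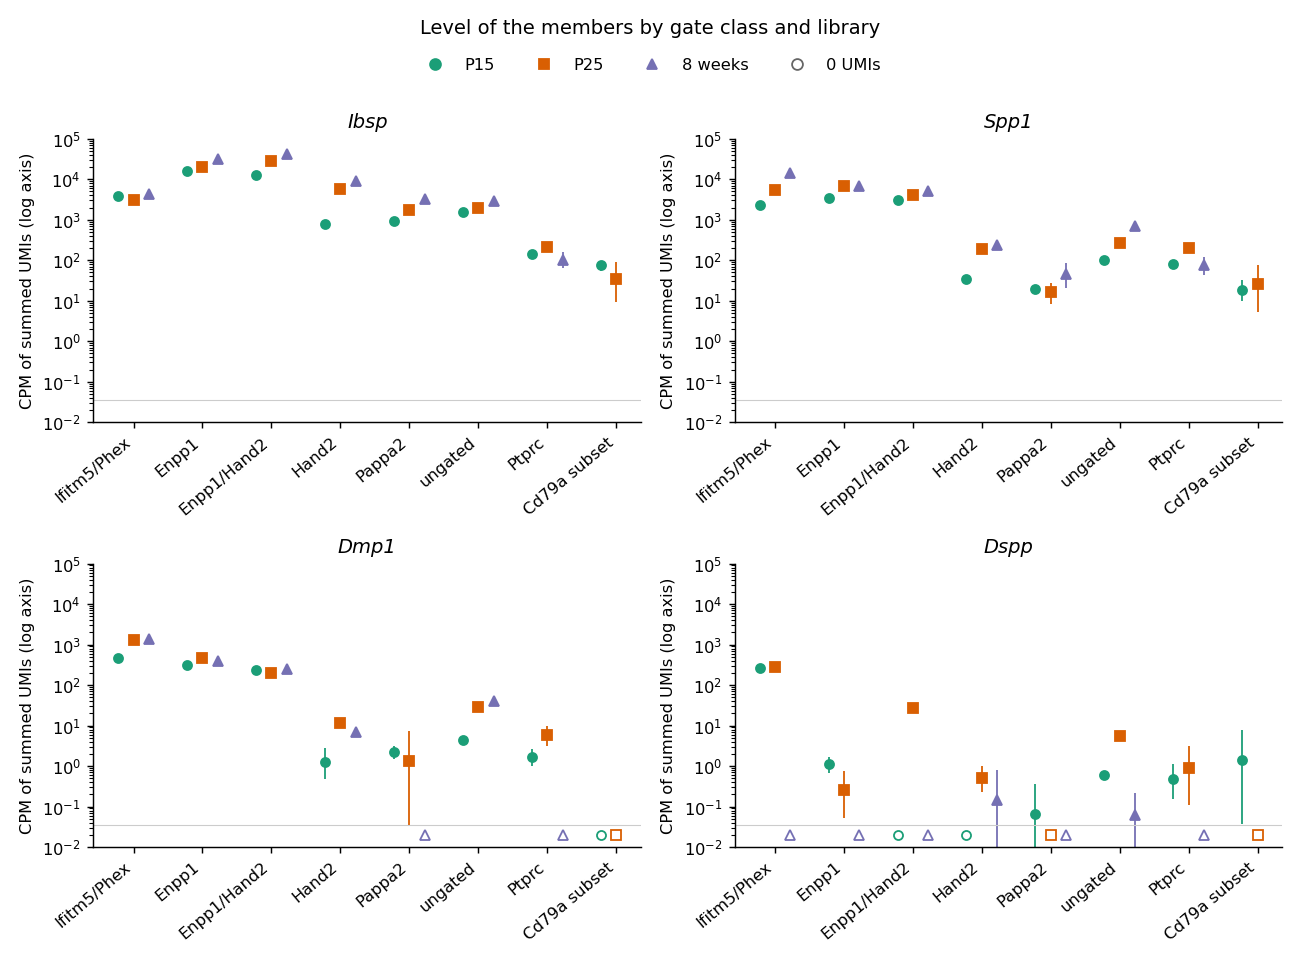
Level of Ibsp, Spp1, Dmp1 and Dspp (CPM of UMIs summed over the cells of a class, log axis) by gate class, 1 point per library, with exact 95% Poisson intervals that cover counting error only and open symbols under the line for 0 UMIs. Ibsp, Spp1 and Dmp1 were high in the Enpp1 and Enpp1/Hand2 classes, and Dspp reached 259 and 287 CPM in the Ifitm5/Phex class at P15 and P25 and 0 at 8 weeks.

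Class levels of Spp1 covered a wide range, and the highest were in the Ifitm5/Phex, Enpp1 and Enpp1/Hand2 classes. The Ifitm5/Phex class held 2334 CPM at P15, most of it in 1 cell described below, 5551 at P25 and 14440 at 8 weeks (mean 7442 ± 6271, n = 3). The Enpp1 class held 3418, 6962 and 6802 CPM (5727 ± 2001, n = 3) and the Enpp1/Hand2 class 3045, 4182 and 5049, so these 3 classes overlapped. The Hand2 class was at 34.7, 187 and 235 CPM, below all of them. The Pappa2 class, at 19.1 and 16.1 CPM, was at the level of the Cd79a cells, 18.6 and 26.1 CPM, which rest on 13 and 3 UMIs. At P15 its interval of 16.97 to 21.45 CPM lay above that of the Epcam cells, 8.54 to 11.9. Its Spp1 is read as close to background. Ungated cells were at 101 CPM at P15, 267 at P25 and 704 at 8 weeks, above the Hand2 class of the same library each time.

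Dmp1 was highest in the same classes. It was found at 468, 1280 and 1413 CPM in the Ifitm5/Phex class (1054 ± 512, n = 3) and at 311, 465 and 390 CPM in the Enpp1 class (388.5 ± 76.8, n = 3), so that each Ifitm5/Phex value was above each Enpp1 value. That separation was lost when 1 cell, the one richest in Spp1, was left out of the P15 class (410 CPM) or when its cells with 5 or more Dspp UMIs were (419 CPM), though within P15 the class remained above the Enpp1 class. The Enpp1/Hand2 class was at 230, 196 and 253 CPM, below every Enpp1 value. The Hand2 class held only 1.29, 11.6 and 6.95 CPM, from 6, 178 and 48 UMIs. No Dmp1 UMI was found in Cd79a cells at P15 or P25, which at P15 allows up to 4.30 CPM (3 counts), and the Epcam cells were at 0.780, 4.17 and 4.92 CPM. Dmp1 in the Hand2 class was therefore not distinguishable from background at P15. At 8 weeks its interval of 5.13 to 9.22 CPM met that of the Epcam cells, 1.98 to 10.1. That background rests on 7 UMIs, 5 of them in 1 of 63 cells, and is itself uncertain. At P25 Dmp1 in the Hand2 class was above the Epcam cells but under the 26.1 CPM that 0 counts in the Cd79a cells allow.

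Dspp was held by few cells, nearly all of them at P15 and P25. The P15, P25 and 8-week libraries held 445, 1591 and 3 Dspp UMIs. In the Ifitm5/Phex class the level was 259 CPM at P15 and 287 at P25, and 0 UMIs were found at 8 weeks. Against the 5.30 CPM that 3 counts in that class would give, Dspp was at least 48.8-fold and 54.1-fold lower there by UMI counting alone. UMIs held by few cells are not independent counts, and the class had only 32 cells at 8 weeks, so the true difference may be smaller. The Enpp1 class held 1.10, 0.259 and 0 CPM. Cells with 5 or more Dspp UMIs numbered 12 at P15, 18 at P25 and 0 at 8 weeks. They held 86.5% and 96.3% of the Dspp UMIs of the P15 and P25 libraries. Of these cells 8 and 13 were in the Ifitm5/Phex class. One ungated, Epcam-positive cell at P25 alone held 409 UMIs, and 1 Enpp1/Hand2 cell held 143 of that class's 145.

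The cells with 5 or more Dspp UMIs also carried other odontoblast transcripts. Nes, an intermediate filament gene expressed by odontoblasts, was at 519 CPM in them at P15 and 269 at P25, against 19.2 and 10.8 in the whole libraries. Dkk1, a Wnt inhibitor of odontoblasts, was at 34.4 and 19.7 CPM against 1.26 and 0.384, with a UMI in 3 of 12 and 11 of 18 of these cells. The whole Ifitm5/Phex class held Nes at 209 and 141 CPM and Dkk1 at 40.2 and 11.2 at P15 and P25. At 8 weeks, where no such Dspp cell was found, that class still held Nes at 168 CPM and Dkk1 at 8.83. Neither gene was therefore particular to the Dspp cells. Phex was found in 8 of 12 and 18 of 18 of these cells, and Dmp1 stood at 770 and 961 CPM, while Spp1 was at 28.2 and 436 CPM and Ibsp at 4712 and 1089 CPM. Only 2 of 12 and 9 of 18 held a Pthlh UMI. Whether these are odontoblasts that entered the sort was not tested.

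Mepe was scarcely detected. It gave 3, 1 and 3 UMIs in 3, 1 and 1 cells of the P15, P25 and 8-week libraries, under 0.1 CPM in each, and did not pass the low-count filter, so that 4 of the 5 members were tested. The single P25 cell lay in the Ifitm5/Phex class. It was not detectable in the Enpp1 class, where 3 counts would give 0.165, 0.259 and 1.04 CPM.

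Where each member's transcripts came from changed between libraries. At P15 the Enpp1 class, 7.97% of cells, held 53.98% of Ibsp, 74.4% of Spp1 and 78.2% of Dmp1 UMIs. At 8 weeks it made up 5.47% of cells and held 27.5%, 31.1% and 29.6%. The Enpp1/Hand2 class, which also passed the Enpp1 gate, went from 0.201% of cells at P15 to 3.58% at 8 weeks. Its shares of Ibsp, Spp1 and Dmp1 UMIs went from 1.42%, 2.14% and 1.87% to 25.6%, 16.4% and 13.7%. A lower share of the Enpp1 class is thus not the same as a lower share of all cells with Enpp1. The Ifitm5/Phex class, under 1% of cells in every library, held 8.38%, 24.7% and 21.1% of Dmp1 UMIs at P15, P25 and 8 weeks, but no more than 1.09% of Ibsp. Cells that passed no gate still held 38.2%, 33.2% and 27.8% of Ibsp.

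Per cell, Ibsp could take a large part of all transcripts. The median cell of the Enpp1 class spent 1.53%, 2.07% and 3.25% of its UMIs on Ibsp at P15, P25 and 8 weeks, and single cells reached 14.1%, 18.1% and 12.6%. At least 1% of UMIs went to Ibsp in 584 of 1030, 378 of 598 and 229 of 284 Enpp1 cells, in 14 of 26, 258 of 296 and 178 of 186 Enpp1/Hand2 cells, and in 7 of 240, 181 of 875 and 177 of 629 Hand2 cells. The Hand2 class thus varied widely from cell to cell. Over this mark were 20.7% and 28.1% of its cells at P25 and 8 weeks, while its median cell was at 0.240% and 0.364%. In the Ifitm5/Phex class only 4 of 45, 6 of 66 and 4 of 32 cells passed it.

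Spp1 was spread unevenly over the Ifitm5/Phex class. At P15, 1 of the 45 cells held 2634 of its 3020 UMIs, and the 4 highest cells held 98.3%. At P25 the 7 highest of 66 cells held 81.2%. At 8 weeks the transcript was shared widely, with 16 of 32 cells above 1% of their UMIs, a median of 1.09%, and 29.9% of UMIs in the 3 highest cells. Without that 1 cell the P15 class was at 304 CPM of Spp1 and 410 CPM of Dmp1, in place of 2334 and 468. Thinned to 3000 UMIs per cell, 15.6% (95% Clopper-Pearson interval 6.49 to 29.5) of the class had an Spp1 UMI at P15, 47.0% (34.6 to 59.7) at P25 and 78.1% (60.0 to 90.7) at 8 weeks, against 3.69%, 5.40% and 3.17% of Epcam cells.

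**Figure D2:**
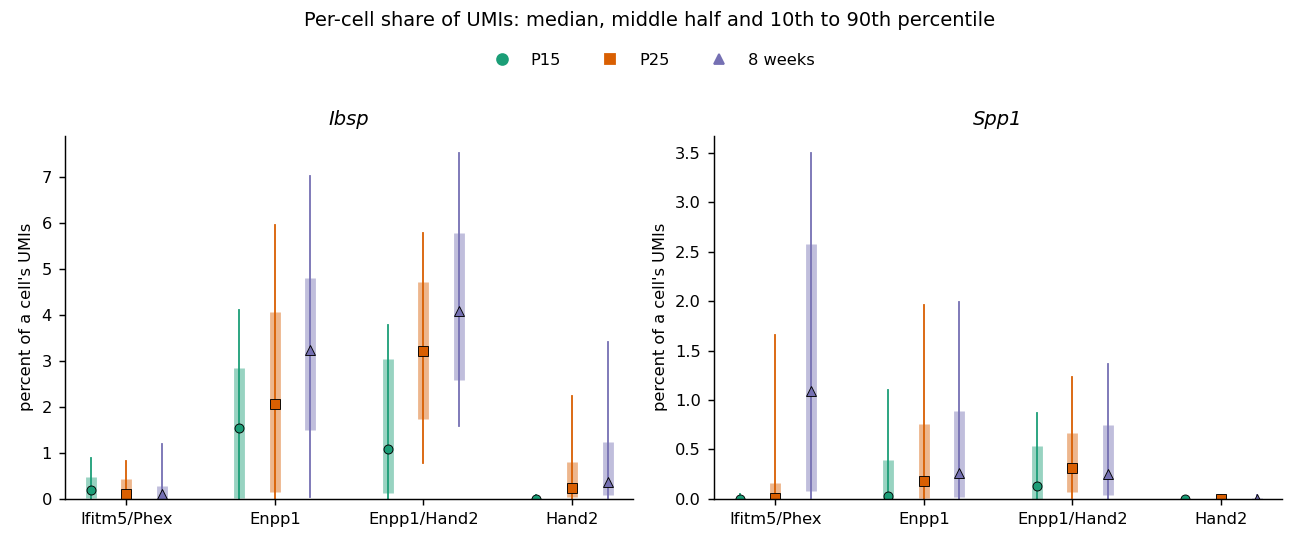
Share of a cell's UMIs (percent) taken by Ibsp and by Spp1 in 4 gate classes, per library. Symbols mark the median cell, bars the middle 50% and lines the 10th to 90th percentile. Ibsp medians of the Enpp1 class were 1.53% at P15 and 3.25% at 8 weeks, and the Spp1 median of the Ifitm5/Phex class was 0 at P15 and 1.09% at 8 weeks.

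The share of cells with a member UMI was compared at the same 3000 UMIs, which left out 3499 shallower cells over all libraries. In the Enpp1 class an Ibsp UMI was found in 73.1%, 81.2% and 91.5% of cells, an Spp1 UMI in 52.6%, 68.4% and 74.8%, and a Dmp1 UMI in 28.1%, 28.6% and 30%. In the Hand2 class the shares were 27.4%, 80.0% and 89.5% for Ibsp, 4.64%, 14.99% and 20.5% for Spp1, and 0%, 2.86% and 1.29% for Dmp1. Counting intervals of the Enpp1 and Hand2 classes were separate in 7 of 9 pairs of member and library, and those of Ibsp at P25 and at 8 weeks met. These intervals take the cells of 1 library as independent. The same count was not made over all genes, so it cannot be said whether 7 of 9 is unusual. Ibsp UMIs in 24.8%, 15.2% and 25% of Ptprc cells and in 17.8%, 10.6% and 7.94% of Epcam cells give the background, at medians of 10569 to 13347 and 21308 to 36521 UMIs before thinning. The 27.4% (21.9 to 33.6) of Hand2 cells at P15 was not distinguishable from the 24.8% (21.7 to 28.0) of Ptprc cells. It was above the 17.8% of Epcam cells, and by level the Hand2 class stood at 766 CPM against 141 in Ptprc cells. The later shares were well above both backgrounds. With 0 of 237 Hand2 cells at P15, a Dmp1 share of up to 1.27% is allowed.

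Whether classes differed was tested with edgeR's quasi-likelihood test on UMIs summed per class and library, with the 3 libraries as replicates of a class and p-values adjusted over 13329 genes by Benjamini-Hochberg. Since those libraries are 3 ages, the p-values measure the spread between these libraries, which holds age too. Of the 4 tested members, 1 was called between the Ifitm5/Phex and Enpp1 classes, where 5.92% of all genes were called, 2 between the Enpp1 and Hand2 classes (3.52%), 3 between the Enpp1 and Pappa2 classes (0.953%) and 0 between the Enpp1/Hand2 and Enpp1 classes (0.00750%). All called members were higher in the class named first, against 3.32%, 2.48% and 0.555% of all genes called higher there, and 2.60% of genes were called lower in the Ifitm5/Phex class. Because the gates were chosen with the study's markers known, these calls are not independent of these data.

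Dmp1 and Spp1 differed between the Enpp1 and Hand2 classes. Dmp1 was higher in the Enpp1 class by 5.82 ± 0.87 (log2 fold ± SE, adjusted p = 0.00207, edgeR) and Spp1 by 5.27 ± 0.92 (adjusted p = 0.00608), in 3 of 3 libraries. Ibsp differed by 2.18 ± 0.65, in the same direction in 3 of 3 libraries and without overlap, but its adjusted p was 0.0903. Since Dmp1 in the Hand2 class was near background, the size of its fold is uncertain. Subtraction of the Cd79a level left its 1.29 and 11.6 CPM at P15 and P25 unchanged, because those cells held 0 Dmp1 UMIs. With so few Cd79a cells at P25, 0 counts still allow 26.1 CPM. With the library as a block, which pairs the classes of one library, Ibsp was called at 2.44 ± 0.46 (adjusted p = 0.00598), where 10.2% of all genes were, and over 15 alternatives its adjusted p ran from 0.00598 to 0.582 with 5 calls. Dspp did not pass (1.01 ± 2.44, adjusted p = 0.960). Without the P25 library the adjusted p (edgeR) was 0.124 for Dmp1 and 0.268 for Spp1, and without the 8-week library 0.0931 and 0.0553. No member was called in either case. Few genes of any kind were, with 18 higher and 3 lower of 13774 without P25. Without 8 weeks 68 of 13816 were called higher and 25 lower. Over all 15 alternatives Dmp1 and Spp1 were called in 13 and 12.

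Against the Pappa2 class, which had enough cells at P15 and P25 only, 3 members were higher in the Enpp1 class. Spp1 differed by 8.32 ± 1.30 (adjusted p = 0.00936, edgeR), Dmp1 by 7.54 ± 1.23 (0.0127) and Ibsp by 4.08 ± 0.84 (0.0334). Spp1 and Dmp1 in the Pappa2 class lay close to the background level (Dmp1 at 2.19 and 1.34 CPM, from 33 UMIs and 1). The size of both folds is therefore uncertain. With the Cd79a level subtracted, the Pappa2 class held 0.49 and -10.06 CPM of Spp1 at P15 and P25, and its Dmp1 was unchanged. At P15 both were above the Epcam cells (Spp1 19.1 against 10.1 CPM, Dmp1 2.19 against 0.780), and at P25 neither was. Dspp, with 1 UMI in the Pappa2 class, did not pass. Without P25 the Pappa2 class was left with 1 library, which is too few to judge the members by. Without 8 weeks only Spp1 was called among the members, where 13 of 13816 genes were called higher and 10 lower.

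Between the Ifitm5/Phex and Enpp1 classes Dspp alone was called. It was higher in the Ifitm5/Phex class by 8.55 ± 1.87 (adjusted p = 0.0166, edgeR), in 2 of 3 libraries with no UMI on either side at 8 weeks. Of the class's Dspp UMIs, nearly all were in the 8 and 13 cells with 5 or more, and its other cells stood at 10.0 and 2.62 CPM. Without P15 or without P25 the adjusted p of Dspp was 0.172 or 0.218, and over 14 alternatives it ran from 0.000197 to 0.218 with 11 calls. Without P25 0 of 13774 genes were called in this comparison, and without P15 301 of 13317 were called higher and 377 lower. Ibsp was lower in the Ifitm5/Phex class by a log2 fold of -2.29 ± 0.65, in 3 of 3 libraries and without overlap, at an adjusted p of 0.0538. With the library as a block it was called at -2.18 ± 0.46 (adjusted p = 0.00841), where 12.5% of all genes were, and over 16 alternatives its adjusted p ran from 0.00309 to 0.630 with 6 calls. Dmp1 was at 1.82 ± 0.72 (adjusted p = 0.167), higher in 3 of 3 libraries, and Spp1 at 0.73 ± 0.77 (adjusted p = 0.686), neither past the threshold. Without P15 Dmp1 was called, at 2.06 (adjusted p = 0.00803), the single call over 16 alternatives with adjusted p up to 0.593, and Spp1 was called in none.

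The Ifitm5/Phex gate was narrow, since only 26 of 316, 54 of 601 and 10 of 118 cells with 10 or more Ifitm5 UMIs also had a Phex UMI. Cells gated by 10 Ifitm5 UMIs with or without Phex had more Ibsp, at 10634, 8049 and 16784 CPM, and less Dmp1, at 304, 495 and 472 CPM. Against the remaining Enpp1 cells Ibsp then differed by -0.70 ± 0.61 (adjusted p = 0.630) and Dspp by 6.45 ± 1.87 (adjusted p = 0.0661), so that no member was called. That gate was chosen after the data were seen.

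Between the Enpp1/Hand2 and Enpp1 classes no member passed the test. Ibsp differed by 0.31 ± 0.62, Spp1 by -0.50 ± 0.77, Dmp1 by -0.80 ± 0.71 and Dspp by 4.31 ± 1.77, with adjusted p of 0.637 or more (edgeR). Dmp1 was lower in the Enpp1/Hand2 class in 3 of 3 libraries without overlap, and Spp1 in 3 of 3 with overlap. At an unadjusted p under 0.05 (edgeR) there was 1 member, beside 930 of all 13329 genes tested. It was Dspp, with 143 of the 145 UMIs of the Enpp1/Hand2 class in 1 cell. DESeq2 called 0 members, where 23 genes were called higher and 69 lower.

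**Figure D3:**
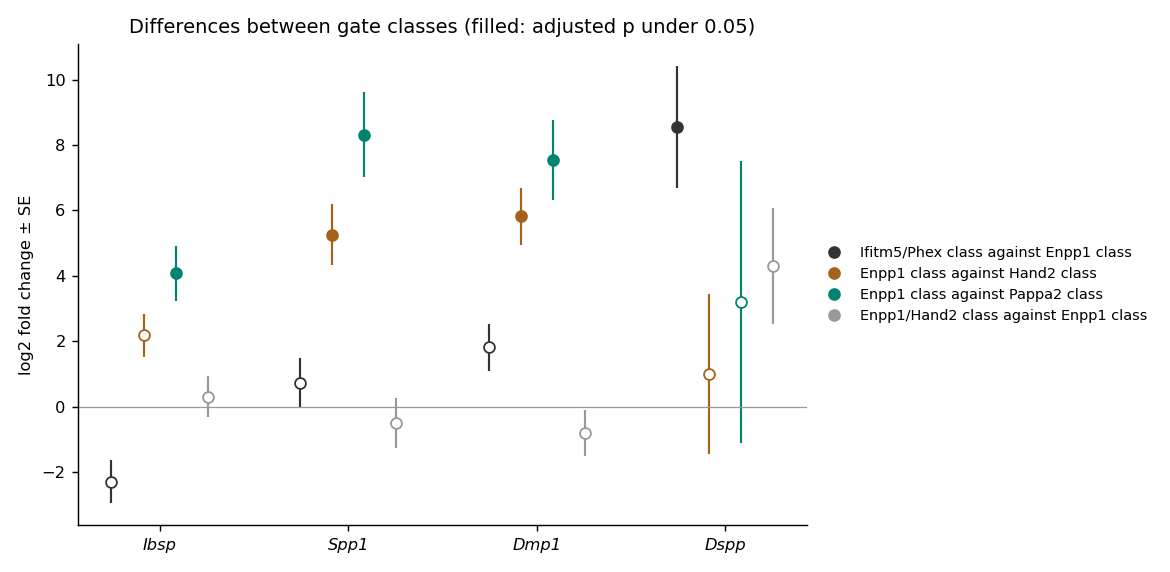
Log2 fold change ± SE of 4 members in the 4 comparisons of gate classes (edgeR), the class named first minus the other, with filled symbols for an adjusted p under 0.05. Dmp1 and Spp1 were higher in the Enpp1 class than in the Hand2 and Pappa2 classes, and Ibsp was lower in the Ifitm5/Phex class than in the Enpp1 class, at -2.29 with an open symbol.

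Members also followed the gates by degree, with the same limit from the choice of gates. From cells with 0 Enpp1 UMIs to those with 10 or more, Ibsp went from 1059 to 24753 CPM at P15, from 1865 to 28326 at P25 and from 2803 to 47607 at 8 weeks. Spp1 went from 59.9 to 9914, from 177 to 14760 and from 561 to 11186 CPM, and Dmp1 from 5.82 to 1007, from 34.5 to 1297 and from 42.1 to 572 CPM. All 3 members were higher at each step of Enpp1 UMIs in every library, while median UMIs per cell ranged from 13922 to 16533 between these bins at P15.

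Along Phex the members parted. From 0 to 10 or more Phex UMIs, Dmp1 went from 65.0 to 1435 CPM at P25 and from 55.9 to 1268 at 8 weeks. At P15 its bins ran 37.3, 36.7, 26.9, 82.1 and 789 CPM, so most of the increase lay in the top bin. Spp1 went from 1151 to 6576 CPM at 8 weeks. At P25 it went from 899 to 4099 CPM, with 3736, 836 and 4289 in the bins between. Ibsp went from 4603 to 1791 CPM at P25 and from 7667 to 620 at 8 weeks, the opposite direction, and from 3015 to 3797 at P15. At P25 the top bin also held Dspp at 1274 CPM, and all 18 P25 cells with 5 or more Dspp UMIs had Phex. Those 18 cells stood at 1089 CPM of Ibsp and 961 of Dmp1. At P15 the top bin held Dspp at 285 CPM. Of the 12 P15 cells with 5 or more Dspp UMIs, 8 had Phex, and the 12 stood at 770 CPM of Dmp1. How far such cells set the P15 and P25 values was not tested, and none was found at 8 weeks. The highest Phex bin held 20, 33 and 32 cells, and at P15 it included the cell with 2634 Spp1 UMIs, which had 17 of Phex. Spp1 in the P15 bins ran 455, 179, 41.5, 278 and 4420 CPM, and the top bin was at 422 without that cell, so no increase was seen apart from it. Along Hand2, Ibsp was highest in cells with 2 to 4 UMIs at P25 and 8 weeks (13483 and 18117 CPM) and was 4324 CPM in the 59 cells with 10 or more at P25. Along Pappa2 at P15, Ibsp went from 3239 to 513 CPM and Spp1 from 528 to 10.7.

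**Figure D4:**
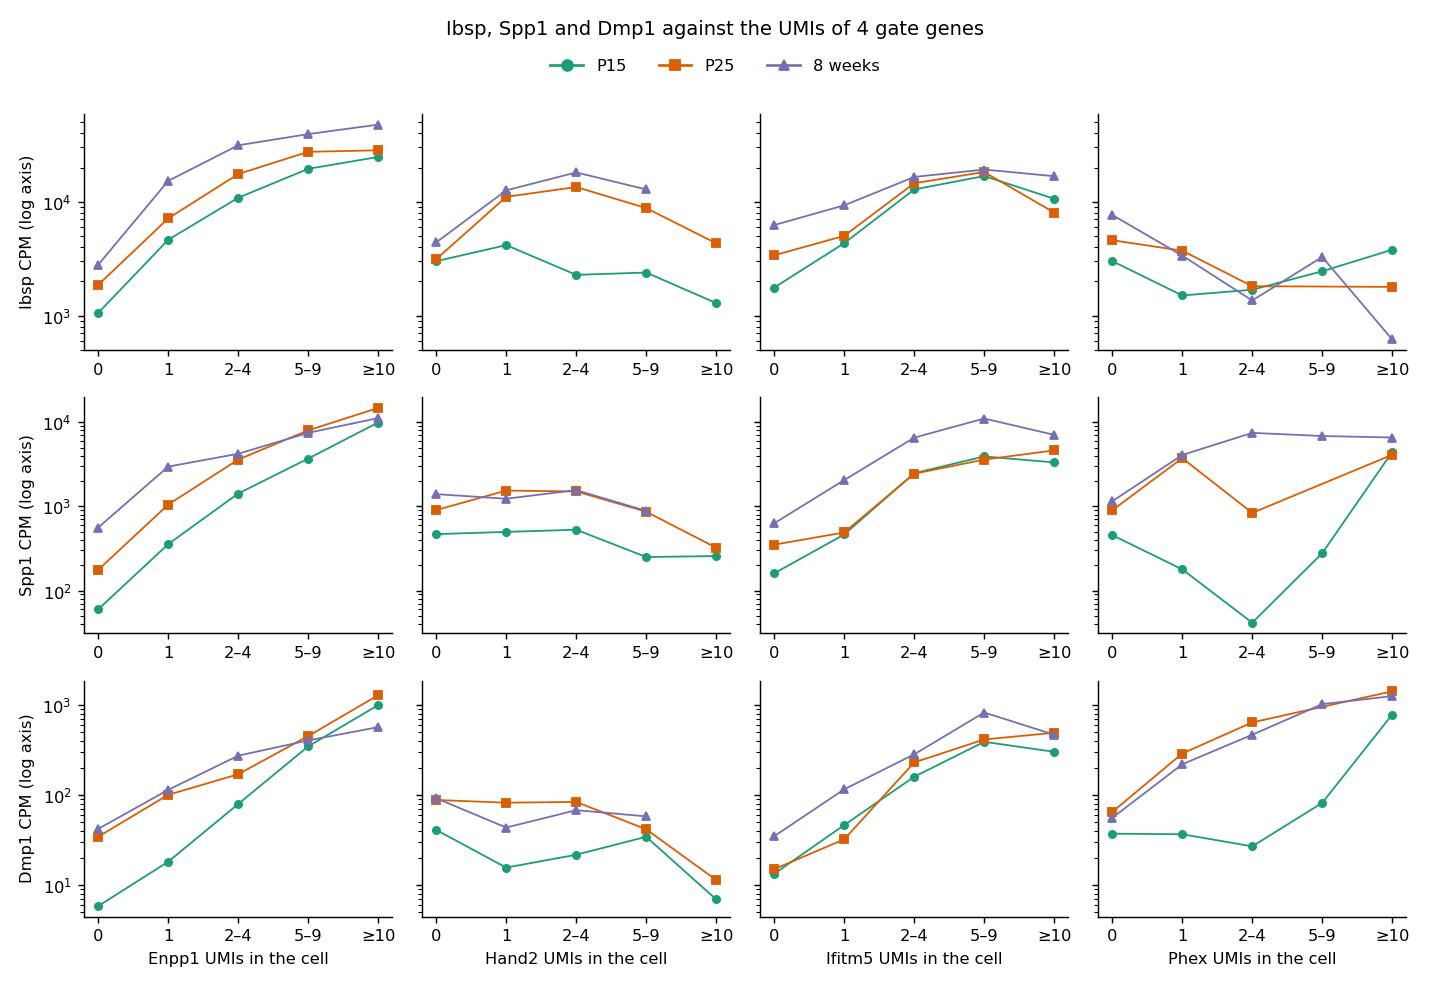
Level of Ibsp, Spp1 and Dmp1 (CPM, log axis) in cells binned by UMIs of Enpp1, Hand2, Ifitm5 or Phex, per library, cells with 2 or more Ptprc UMIs left out and bins under 20 cells not drawn. All 3 members were higher at each step along Enpp1 in each library, and along Phex Dmp1 was highest and Ibsp lowest in the top bin at P25 and 8 weeks.

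The balance of Spp1 to Ibsp also differed between classes. Per 100 Ibsp UMIs, which are counts and not levels per length, the Ifitm5/Phex class held 61.8, 184 and 336 Spp1 UMIs and the Enpp1 class 21.6, 35.6 and 20.9. The Enpp1/Hand2 class held 23.5, 14.6 and 11.9, and the Hand2 class 4.52, 3.35 and 2.65. Ptprc cells held 58.3, 91.9 and 72.7 at far lower levels of either gene. At P25 and 8 weeks the Ifitm5/Phex value was the highest of the classes. At P15 it was so only through 1 cell, without which it was 7.90, below the Enpp1, Enpp1/Hand2 and Ptprc values. For Dmp1 the ratio was 12.4, 42.4 and 32.9 in the Ifitm5/Phex class and 1.96, 2.37 and 1.2 in the Enpp1 class.

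Within the Enpp1 class, Spp1 and Dmp1 were found in the same cells more often than the product of their shares gives, by 1.61, 1.36 and 1.29 times over 1023, 595 and 270 cells at 3000 UMIs. Of the cells with Dmp1, 84.7%, 92.9% and 96.3% also had Spp1. Spearman's rho of the pair over cells was 0.48, 0.49 and 0.49, and for Ibsp and Spp1 0.28, 0.34 and 0.24. Ibsp and Dmp1 were related at 0.39 at P15 but at 0.11 and 0.06 later. These are descriptions over cells that share a library and its free RNA, and in Ptprc cells the rho of Ibsp and Spp1 was 0.01 at P15 and 0.32 at P25. In the Ifitm5/Phex class at 8 weeks Ibsp and Spp1 had a rho of -0.36 over 32 cells, against 0.06 over 45 cells at P15 and 0.23 over 66 at P25.

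**Figure D5:**
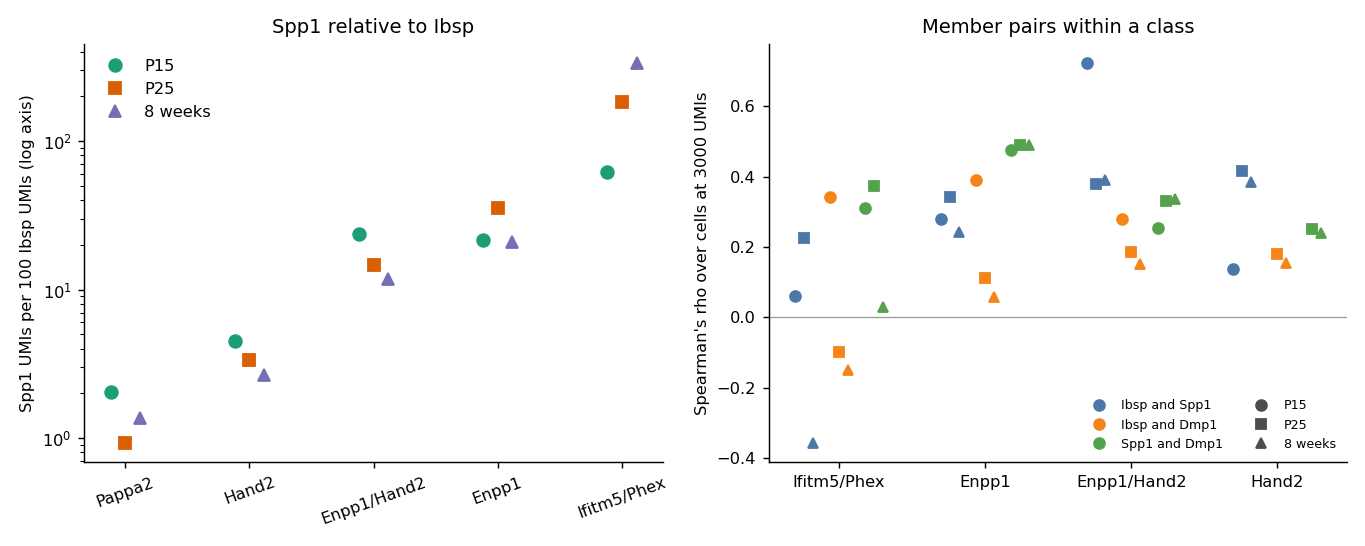
Left, Spp1 UMIs per 100 Ibsp UMIs (log axis) by gate class and library. Right, Spearman's rho of member pairs over cells at 3000 UMIs within a class, colour by pair and symbol by library. The ratio was highest in the Ifitm5/Phex class at P25 and at 8 weeks, up to 336, while its P15 point of 61.8 rests on 1 cell and was 7.90 without it, and Spp1 and Dmp1 were at 0.48 to 0.49 in the Enpp1 class.

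Between P15 and 8 weeks, levels are set side by side because each age is 1 library, and age, sort and library cannot be told apart. In the Enpp1 class Ibsp was 2.05-fold and Spp1 1.99-fold higher at 8 weeks, and Dmp1 1.25-fold. The Dmp1 ratio turned with the gate, to a log2 ratio of -0.42 with gates at 5 UMIs and -0.67 with gates on thinned cells. In the Ifitm5/Phex class Spp1 was 6.19-fold and Dmp1 3.02-fold higher at 8 weeks, and Dspp was at 0. Without the 1 cell that held most of the P15 Spp1, these ratios were 47.5 and 3.45, so the size of the Spp1 ratio is set by 1 cell. Ibsp was 1.14-fold higher there, which turned to -0.33 (log2) with gates at 5 UMIs, -1.06 with thinned gates and -0.19 without likely doublets. The Hand2 class had ratios of 11.6 for Ibsp, from 766 to 8868 CPM, and 6.78 for Spp1. In whole libraries Ibsp was at 2844, 4464 and 7384 CPM, Spp1 at 445, 949 and 1366, and Dmp1 at 38.6, 83.0 and 82.2, where more cells of a class and more transcript per cell cannot be told apart.

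A list of 36 genes that make, modify or bind this matrix gives the setting, of which 35 were tested. In the Enpp1 class 7 were higher than in the Hand2 class and 0 lower (20%, against 3.52% of all genes). They were Fam20c, the secretory-pathway kinase that phosphorylates this protein family (2.51 ± 0.41, adjusted p = 0.00305, edgeR), Smpd3, a sphingomyelinase needed for mineralization (4.16 ± 0.72), Ank, which exports pyrophosphate and ATP (3.08 ± 0.59), the osteocalcin genes Bglap (4.89 ± 1.05) and Bglap2 (5.01 ± 1.06), the stromelysin Mmp3 (5.53 ± 1.24) and the vitamin D receptor Vdr (2.36 ± 0.61). Fam20c stood at 51.0, 49.8 and 66.6 CPM in the Enpp1 class and 5.81, 11.7 and 11.9 in the Hand2 class. Bglap and Bglap2 are near-identical copies whose reads may have been split between them. Ank was also a marker of the Enpp1 gate, and Smpd3 and Bglap of the Ifitm5/Phex gate. The study lists all 3 as markers of its cementoblast clusters, drawn in part from these libraries, so the 20% is not independent of these data. Against the Pappa2 class Ank and Fam20c were the 2 called of 35.

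In the Ifitm5/Phex class 5 of the 35 were higher than in the Enpp1 class and 3 lower (22.9%, against 5.92%). Bglap (3.65 ± 0.99), Col1a1 (2.35 ± 0.46), Col1a2 (2.16 ± 0.43), Sparc (1.82 ± 0.40) and Pcolce, an enhancer of collagen processing (1.77 ± 0.37), were higher. The gelatinase Mmp9 (-2.87 ± 0.80), the integrin subunit Itgb5 (-1.89 ± 0.39) and the osteogenic factor Runx2 (-1.14 ± 0.24) were lower. Bglap, Col1a1 and Sparc also served as markers of this class above. The study lists them among the top markers of its Ifitm5-expressing cementoblast cluster, drawn in part from these libraries. The 22.9% is therefore not independent of these data either. Among the 7 integrin and CD44 receptors Itgb5 was the 1 called, and Fam20c did not pass the test, at 32.5, 48.7 and 111 CPM. Between the Enpp1/Hand2 and Enpp1 classes edgeR called 0 of the 35.

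Over the 19 sums of class and library, Spp1 and Dmp1 were most alike among the members, with a Pearson r of log2(CPM + 10) of 0.954. Sgms2 (0.957), Bmp8a (0.939), Endod1 (0.937), Ank (0.925) and Pla2g5 (0.922) came closest to Spp1, and Bmp8a (0.971), Endod1 (0.963), Pla2g5 (0.963), Sgms2 (0.949) and Fam20c (0.938) to Dmp1. Ibsp was nearest to Gtf2ird1 (0.958), Tmem119 (0.952), C1qtnf7 (0.942), Bmp3 (0.940) and Tbx2 (0.939), and was less like Spp1 (0.717) and Dmp1 (0.640). Dspp was nearest to Slc13a5 (0.861) and Lipc (0.823) and had an r of 0.039 with Ibsp. The sums share their libraries, and classes of 1 library are not independent points.

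Neighbours of the family on chromosome 5 were looked at in the same comparisons. Within 200 kb of it, 16 further genes are annotated, 7 of them among the shared genes. Of the 6 tested, none was called between the Ifitm5/Phex and Enpp1 or the Enpp1 and Hand2 classes (edgeR). Of all genes 5.92% and 3.52% were called there, so the absence of a call among 6 genes says little about the neighbours. Gm17660 had the largest folds, -5.70 in the Ifitm5/Phex class (adjusted p = 0.321) and 5.55 between the Enpp1 and Hand2 classes (adjusted p = 0.281), with 218, 16.2 and 0 CPM in the Enpp1 class. Sparcl1, a matricellular gene upstream of Dspp, was at -2.20 in the Ifitm5/Phex class (adjusted p = 0.0625). Pkd2, which follows Spp1, was at -0.87 (adjusted p = 0.0560) and at -0.07 between the Enpp1 and Hand2 classes, where Spp1 differed by 5.27.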

How the data were processed

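Pthrp-mCherry+ cells were profiled by 10x Genomics Chromium 3′ sequencing. For each library the authors deposited UMI counts per gene and cell from Cell Ranger, whole numbers without normalization. File headers give version 6.1.2, and 6.0.1 at P25, where the processing notes give 6.1.2; the notes name build mm10. Total UMIs were 188157997, 169712592 and 46234378. All 27089 cells were kept, doublets included, since Scrublet called 386, 0 and 9 cells. The members, gates and gene lists were chosen with earlier results of these data known; the text names all members, the gate genes, and partners by count.

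UMIs were summed per class and library (20 cells or more, 19 sums of 7 classes) and fitted with edgeR 4.0.16 (R 4.3.3; TMM, filterByExpr, robust quasi-likelihood), with calls at an adjusted p under 0.05; DESeq2 1.42.0 was an alternative. The fit was tested on simulated data. CPM used UMIs of shared genes with exact 95% Poisson intervals, and intervals and floors cover counting error only. Classes of 1 library are paired by that library; their deviations from class means correlated at 0.268 to 0.613. The study's P6 library was not analysed here.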

Additional observations from a re-analysis of the deposited data

Results flagged for a closer look

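Some signals of members lay in cells that enter no comparison. In Epcam-positive cells Spp1 was at 411 CPM at 8 weeks, above the 10.1 and 18.5 CPM of such cells at P15 and P25, and 558 of its 585 UMIs were in 1 of 63 cells. Dspp was at 18.8 CPM in Epcam-positive cells at P25, above the 0.213 CPM at P15, with 409 of 411 UMIs in 1 of 564 cells. Ibsp in ungated cells was at 1517, 1976 and 2866 CPM at P15, P25 and 8 weeks, above the 74.5 and 34.8 CPM of Cd79a cells at P15 and P25.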

How the results depend on the processing

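Counts are of members and then of genes called, with P15, P25 or 8 weeks left out in turn given as a range. Ifitm5/Phex against Enpp1 had 1 member and 789 genes. Its members became 2 with gates at 5 UMIs, without likely doublets, with DESeq2 and with the library as replicate block, 0 with 10 Ifitm5 UMIs as the gate and 0 without cells of 5 or more Dspp UMIs (both chosen after the data were seen; the latter leaves out cells by Dspp itself and tests nothing about it), and 0 to 2 with a library left out. Its genes became 318 with gates at 1 UMI, 1665 with the block and 0 to 678 with a library left out. With only the classes compared, Dspp was not tested, and the 1 member called was another, lower in the Ifitm5/Phex class. Enpp1 against Hand2 had 2 and 469, which became 1 member with gates on thinned cells, 3 with gates at 5 UMIs, DESeq2, the block and a Hand2 class with Enpp1 at 0 (chosen after the data were seen), and 0 to 3 with a library left out. Its genes were 285 with gates at 1 UMI, 283 with thinned gates, 793 with DESeq2, 1354 with the block and 21 to 350 with a library left out. Enpp1 against Pappa2 had 3 and 127, which became 1 member with gates at 5 UMIs, 2 with thinned gates or no low-count filter and 0 to 3 with a library left out, and 420 genes with DESeq2, 461 with the block and 0 to 109 with a library left out. Enpp1/Hand2 against Enpp1 had 1 gene, which became 9 with gates at 1 UMI or thinned, 8 with gates at 5, 17 without doublets, 4 with RLE, 92 with DESeq2, 102 with the block, 6 with only the classes compared and 0 to 2 with a library left out. The block changed the calls of Ibsp in the first and second of these comparisons and no other member's.

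Directions turned for Spp1 in Ifitm5/Phex against Enpp1 (log2 fold -0.095 with thinned gates, -0.012 to 1.05 with a library left out), for Dspp in Enpp1 against Hand2 (-0.87 to 3.21 with a library left out) and in Enpp1/Hand2 against Enpp1 (-7.95 with gates at 5, -1.30 with thinned gates, -7.06 to 6.18 with a library left out), none of them called. From P15 to 8 weeks Dmp1 in the Enpp1 class turned to -0.42 with gates at 5 and -0.67 with thinned gates, and Ibsp in the Ifitm5/Phex class to -0.33, -1.06 and, without doublets, -0.19. The cause was not tested. Over the alternatives of single members' values, 249 kept direction and size or side of the threshold, 58 untested values moved, 12 became called, 18 lost their call and 11 turned. Subtraction of free RNA could not be run for P15 against 8 weeks, where no Cd79a cells were found. Few UMIs limit what can be said of Mepe everywhere, and of Dmp1 in the Pappa2 class and in the Hand2 class at P15 and 8 weeks.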

Other observations

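Members in macrophage-lineage cells were low and held by few cells. In Ptprc cells with 2 or more UMIs of Csf1r, Spp1 was at 147, 228 and 56.9 CPM at P15, P25 and 8 weeks, against 18.6 and 26.1 CPM in Cd79a cells at P15 and P25, while Dmp1 was at 3.26, 7.12 and 0 CPM. At P25, 1 of the 97 cells held 215 of these Spp1 UMIs and 10 cells held 89.7%, and at P15 30 of 301 cells held 84.4%. Ibsp in the same cells was at 153 and 247 CPM at P15 and P25, also above the Cd79a cells at 74.5 and 34.8. Thinned to 3000 UMIs, 14.1% (10.3 to 18.7) of them had an Spp1 UMI at P15 against 1.75% (0.0444 to 9.39) of Cd79a cells. At P25 the shares were 14.4% and 15.4%, but the library held only 14 Cd79a cells with 3 Spp1 UMIs before thinning. These are too few to compare shares. By level the intervals at P25 were separate, at 206 to 251 CPM in the Csf1r cells and 5.39 to 76.4 in the Cd79a cells. Of 6 osteoclast genes, the same cells at P15 held Acp5 at 912 CPM and Ctsk at 709 CPM. Dcstamp was at 21.8 CPM, Ocstamp at 21.4, Oscar at 1.63 and Calcr at 0.408. At P25 and 8 weeks Acp5 was at 130 and 77.6 CPM, against 100 and 94.1 in Epcam cells. Ctsk was then at 79.9 and 10.35 CPM, against 606 and 647 in the Enpp1 class.

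Cells that spent at least 1% of their UMIs on Ibsp were also found without a gate gene, 416, 414 and 318 of them among ungated cells. Over all classes such cells numbered 1057, 1247 and 909, and 94.8%, 92.1% and 87.4% of them held a Pthlh UMI, with Pthlh at 564, 432 and 508 CPM against 148, 189 and 226 in the whole libraries.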
